A study of Mus musculus with 6 samples.

Results

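The 9 genes described here belong to the bone morphogenetic protein (BMP) pathway of mouse embryonic stem cells: the ligand gene Bmp4, the receptor gene Bmpr1a, the signal transducer genes Smad1 and Smad5, the inhibitory Smad6 and Smad7, and the target genes Id1, Id2 and Id3. They were chosen by gene symbol, and all probes that the array's annotation ties to these symbols were taken: 9 of 19057 named genes, with 18 of the 45281 probes on the array. Of these, 12 probes, standing for 8 of the 9 genes, passed the detection filter described below. The study compared cells given a vector for a short hairpin RNA (shRNA) that targets Chd1, which encodes an ATP-dependent chromatin remodeller of active genes, with cells given a control vector. All 6 samples, 3 control and 3 Chd1 shRNA, were grown with serum and leukemia inhibitory factor (LIF) on mouse embryonic fibroblasts whose division mitomycin C had stopped. The pHYPER vectors were delivered by electroporation, and puromycin was added 24 h later for 48 h before RNA was taken. What the control vector carries, how many hairpins were used and whether the samples of a group were separate cultures are not given in the sources used here, so p-values measure only the spread between these samples, which may be technical. No step that removes the feeder cells before RNA extraction is described.

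BMP ligands are secreted dimers that bring type I receptors such as BMPR1A together with type II receptors. The activated type I receptor phosphorylates SMAD1 and SMAD5, which join SMAD4, enter the nucleus and bind DNA at the target genes. ID proteins, the best known products of these targets, are helix-loop-helix proteins without a DNA-binding region that hold E proteins away from DNA. In mouse embryonic stem cells, BMP acting through Id genes together with LIF is known to restrain neural differentiation, and serum is a source of BMP activity. SMAD6 and SMAD7 are themselves induced by the pathway and limit it.

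The sequences around the annotated starts of Bmp4, Id3 and Smad6 are shown because these 3 genes had the largest differences among the 9. Each runs from 250 bases before the start to 20 after it, 270 bases in all, on the gene's own strand, from RefSeq (GRCm38.p6). The table of promoters held 7 of the 9 genes. Capitals mark matches, on either strand, to the SMAD-binding core GTCT, to its palindrome GTCTAGAC, which contains the core on both strands, or to the GC-rich SMAD1 and SMAD5 element GGCGCC. The Bmp4 window lies at chr14:46390650-46390919 (minus strand), Id3 at chr4:136143572-136143841 (plus strand) and Smad6 at chr9:64022040-64022309 (minus strand).
Bmp4: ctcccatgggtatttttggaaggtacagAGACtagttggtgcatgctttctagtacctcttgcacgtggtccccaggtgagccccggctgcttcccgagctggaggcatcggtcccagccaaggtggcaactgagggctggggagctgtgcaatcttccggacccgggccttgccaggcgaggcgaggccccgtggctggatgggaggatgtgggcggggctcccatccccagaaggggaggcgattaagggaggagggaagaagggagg
Id3: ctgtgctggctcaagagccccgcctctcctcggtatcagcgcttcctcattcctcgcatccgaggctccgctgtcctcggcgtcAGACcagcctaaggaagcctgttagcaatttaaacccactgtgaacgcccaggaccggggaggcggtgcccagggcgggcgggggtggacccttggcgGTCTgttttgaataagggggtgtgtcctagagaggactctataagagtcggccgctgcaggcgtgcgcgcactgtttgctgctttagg
Smad6: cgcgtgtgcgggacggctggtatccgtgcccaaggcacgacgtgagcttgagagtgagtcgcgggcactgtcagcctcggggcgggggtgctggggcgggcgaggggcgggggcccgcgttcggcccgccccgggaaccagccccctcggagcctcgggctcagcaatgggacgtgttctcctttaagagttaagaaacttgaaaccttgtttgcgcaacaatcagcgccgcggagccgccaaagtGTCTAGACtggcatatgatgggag
The Smad6 window held the palindrome once, across the annotated start. Of the 32851 promoter windows in the table, 0.183% hold it at any position. The palindrome was added to the motifs after these sequences were seen, so this share is no test of the match. The core matched once in the Bmp4 window and at 2 places in the Id3 window, in Smad6 it matched only within the palindrome, and 85.2% of all windows hold it. The element GGCGCC, found in 10.4% of all windows, matched in none of these 3. A match describes letters and shows no binding.

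The arrays detected 15663 to 15925 probes in control and 16285 to 17391 in Chd1 shRNA samples, and their median unnormalized intensities ran from 96.6 to 114.4. A probe counts as detected on an array where its detection p, which sets it against negative-control beads, is under 0.05. The 16018 probes detected on at least 3 of the 6 arrays were tested with limma on normalized log2 intensity, and adjusted p-values cover all of them. Array values are given in the order of replicates 1, 2 and 3, first for control, then for Chd1 shRNA. Chd1 itself, by probe ILMN_1258834, read 7.70, 8.81 and 6.91, then 5.96, 5.95 and 5.29. Its groups did not overlap on 3 of its 4 detected probes, all 3 lower with the hairpin, against 8.58% of all tested probes. The adjusted p-values of these 3 ran from 0.174 to 0.205 by limma. The remaining probe, ILMN_2958382, was at 92.6% of control, with overlapping groups. All 14 embryonic stem cell marker genes were detected on 5 arrays and 13 of them on control replicate 3. The fibroblast markers differed between arrays: their mean log2 intensity over 17 probes was 6.42, 6.38 and 7.45, then 6.88, 7.87 and 7.84. Their summed unnormalized intensity ranged from 6168.3 to 8423.2 in control and from 8479.4 to 15040.9 in Chd1 shRNA arrays. Of 20 fibroblast markers on the array, 11 to 15 were detected per array, and Col1a2, Col5a2 and Postn were detected on none. Primitive endoderm markers were detected for 3 or 4 of 6 genes per array, with Gata4 and Sox17 on none, trophectoderm markers for 1 or 2 of 5 and mesoderm markers for 0 or 1 of 5. In bulk RNA, fewer cells of a type and less RNA per cell cannot be told apart. The 3 arrays of each group lay side by side on 1 chip, and an effect of that place cannot be told apart from one of the hairpin.

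In Chd1 shRNA arrays the signal of the ligand gene Bmp4 was lower on both of its probes, at 48.8% and 49.9% of control. That of the inhibitory Smad6 was higher, at 156.9%, as was that of the target gene Id3, at 159.4%, while the 95% intervals of all 4 Smad1 and Smad5 probes held 0. None of the 12 detected probes of these genes passed an adjusted p of 0.05 by limma, where 0% of all 16018 tested probes did. At an unadjusted p under 0.05 there were 5 of the 12, against 10.4% of all tested probes. Of these 5, 2 were lower (5.7% of all tested probes) and 3 higher in Chd1 shRNA arrays (4.71% of all). The groups did not overlap for 5 probes too, against 15.5% of all tested probes: 2 Bmp4 probes, lower in Chd1 shRNA arrays (8.58% of all), and 2 Bmpr1a probes and the Smad6 probe, higher (6.92% of all). By an exact permutation test (two-sided), each of these 5 probes had a p of 0.1, below which a design of 3 against 3 cannot go. Across the 12 probes, 8 had positive and 4 negative differences with a median of 0.13 on the log2 scale, against 50.5% positive and a median of 0.0036 over all tested probes. The plot of all 12 probes by array shows how far the arrays of each group lie apart.

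**Figure D1:**
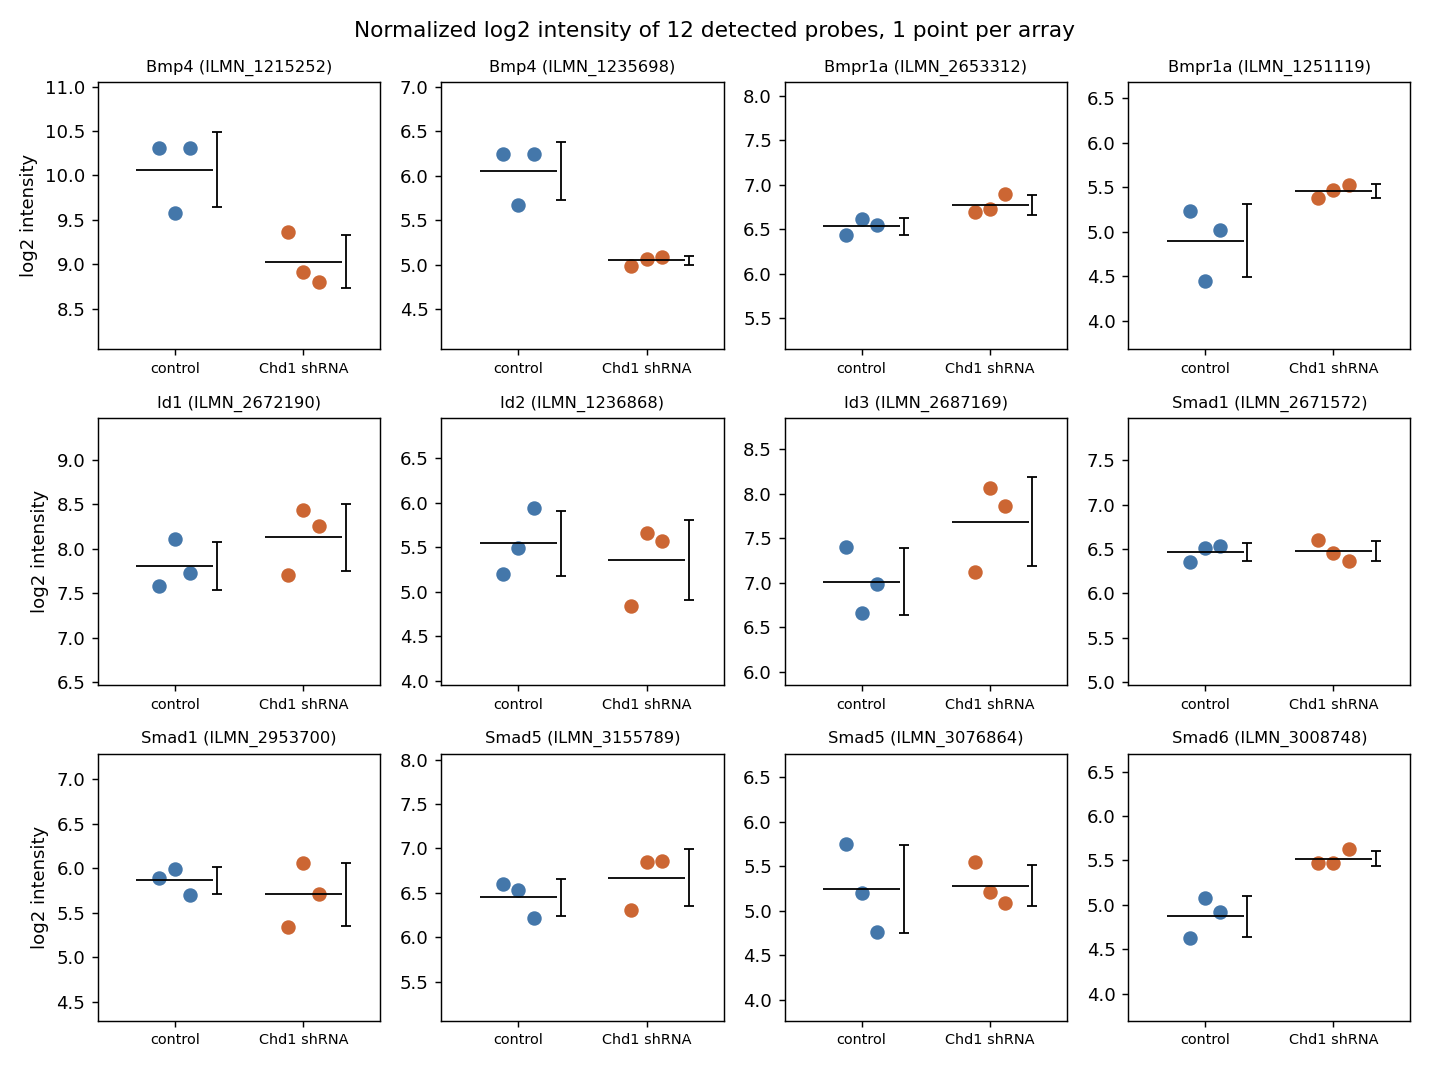
Normalized log2 intensity (y axis, each panel spanning 3 log2 units) of the 12 detected probes in the 3 control and the 3 Chd1 shRNA arrays, 1 point per array in replicate order, with the mean as a line and the SD as a bar. The groups stand apart for both Bmp4 probes, both Bmpr1a probes and Smad6, and overlap for the other 7 probes.

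Bmp4, the only ligand among the 9 genes, had the largest difference, and its 2 probes gave nearly the same value. On probe ILMN_1215252 the normalized log2 intensity was 10.31, 9.57 and 10.31 on the control arrays and 9.37, 8.91 and 8.81 on those with the Chd1 hairpin. Control replicate 2 was the lowest control, yet stood above every Chd1 shRNA array. The log2 difference was -1.04 (SE 0.26, 95% interval -1.61 to -0.46, n = 3 per group), a level of 48.8% of control, with an adjusted p of 0.271 by limma. The dimmer probe ILMN_1235698 read 6.24, 5.68 and 6.24 on the control arrays and 4.99, 5.07 and 5.09 on those with the Chd1 hairpin. On this probe the 3 Chd1 shRNA arrays lay within an SD of 0.053, against 0.33 in control, and no array of one group reached the other. Its difference was -1.00 (SE 0.20, 95% interval -1.47 to -0.54), 49.9% of control, with an adjusted p of 0.205 by limma. Both probes are annotated to the Bmp4 reference mRNA. An absolute log2 difference of 1 or more was seen for 1.45% of all tested probes. With the array's fibroblast level as a covariate the differences were -1.00 (SE 0.32) and -1.16 (SE 0.25), with adjusted p-values of 0.530 and 0.500 by limma. The fibroblast level was itself higher on average in Chd1 shRNA arrays, so this fit cannot fully separate it from the hairpin. Leaving out control replicate 2, the lowest control, gave -1.28 and -1.19, and leaving out control replicate 1 or 3 gave -0.91 on both probes. Without background correction, which leaves a constant in the dim probe, ILMN_1235698 gave -0.36. Among embryonic stem cell markers, 19 of 24 detected probes also had negative differences, with a median of -0.21, and none passed an adjusted p of 0.05 by limma. Of the 24, 4 had an unadjusted p under 0.05 by limma, all lower, against 5.7% of all tested probes. The 4 were Sox2 at -0.79 and Zfp42 at -0.78, both with overlapping groups, and Esrrb and Dppa4 (ILMN_1248480), both at -0.44 without overlap. Positive differences were found for 5 of the 24, among them both Nanog probes at 0.17 and 0.16. Over the 24 probes, groups did not overlap for 3 lower (8.58% of all tested probes) and 1 higher (6.92% of all). The summed unnormalized intensity of the stem cell markers was 88913.8 to 125992.2 in control and 91075.7 to 109577.7 in Chd1 shRNA arrays. With median scaling 12 of the 24 were negative and the median was 0.0059, where the Bmp4 probes gave -0.76 and -0.84. That scaling moved the median of all tested probes to 0.21, above that of these markers. With the fibroblast covariate 14 of the 24 were negative and their median was -0.07. The part of the stem cell marker shift in the Bmp4 values was not tested.

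Bmpr1a, the type I receptor of this ligand, was read by 2 detected probes with higher signal in all Chd1 shRNA arrays. Probe ILMN_2653312 read 6.43, 6.62 and 6.54 on the control arrays and 6.69, 6.73 and 6.89 on those with the Chd1 hairpin. The highest control array lay just below the lowest Chd1 shRNA array. The log2 difference was 0.24 (SE 0.17, 95% interval -0.14 to 0.62), with an adjusted p of 0.614 by limma. Probe ILMN_1251119, near background, read 5.24, 4.45 and 5.02 in control, where replicate 2 was not detected, and 5.38, 5.48 and 5.53 in Chd1 shRNA arrays. Its difference of 0.56 (SE 0.23, 95% interval 0.05 to 1.07) had an adjusted p of 0.449 by limma and was 0.33 without that control array. Bmpr1a had values opposite in sign to those of its ligand on both probes, and neither passed the threshold.

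Smad1 and Smad5, which carry the signal from the receptor to the nucleus, showed no difference that could be told from 0. For Smad1, probe ILMN_2671572 read 6.35, 6.51 and 6.53 on the control arrays and 6.60, 6.46 and 6.37 on those with the Chd1 hairpin. The groups were interleaved, and the log2 difference was 0.01 (95% interval -0.38 to 0.40). The second Smad1 probe, ILMN_2953700, read 5.90, 6.00 and 5.70 against 5.34, 6.06 and 5.72, a difference of -0.16 (95% interval -0.65 to 0.34). Here Chd1 shRNA replicate 1 was the lowest of the 6 arrays, and without it the difference was 0.02. The other 3 Smad1 probes did not pass the detection filter. Among them ILMN_1240219 was detected on 2 control arrays and on no Chd1 shRNA array, with measured means of 4.89 and 4.51. Its groups overlapped, as control replicate 3, where it was not detected, lay below Chd1 shRNA replicate 3, so no fold is given.

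Smad5 probe ILMN_3155789 read 6.60, 6.54 and 6.22 on the control arrays and 6.31, 6.85 and 6.86 on those with the Chd1 hairpin. Chd1 shRNA replicates 2 and 3 stood above all controls and replicate 1 did not, and the difference was 0.22 (95% interval -0.27 to 0.71). On ILMN_3076864 the arrays read 5.75, 5.20 and 4.77 against 5.54, 5.21 and 5.09, with a difference of 0.04 (95% interval -0.56 to 0.64). With the fibroblast level as a covariate this probe gave 0.47, with an adjusted p of 0.734 by limma. A p that misses the threshold does not show that these genes were alike in both groups. Differences inside each probe's own 95% interval remain compatible with these 3 arrays per group. The lowest adjusted p among these 4 probes was 0.716 by limma.

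Smad6, whose product blocks receptor and SMAD1 signalling, had higher signal in Chd1 shRNA arrays. Probe ILMN_3008748 read 4.62, 5.07 and 4.92 on the control arrays and 5.48, 5.47 and 5.62 on those with the Chd1 hairpin. All Chd1 shRNA arrays lay above all controls, at low intensity: the probe was detected on all 3 Chd1 shRNA arrays and on 2 of 3 control arrays. The log2 difference was 0.65 (SE 0.19, 95% interval 0.23 to 1.07, n = 3 per group), 156.9% of control, with an adjusted p of 0.310 by limma. With the fibroblast level as a covariate it was 0.60, and without background correction, which leaves a constant in dim probes, 0.20. Smad7, the other inhibitory SMAD gene, was detected on none of the 6 arrays, with unnormalized intensities of 106.6, 103.9 and 86.9 on the control arrays and 107.0, 88.1 and 111.5 on those with the Chd1 hairpin. Its signal gives no difference to set beside that of Smad6.

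Among the target genes, Id3 and Id1 had a higher mean signal in Chd1 shRNA arrays. Id2 had a lower one on its only probe past the detection filter, and none of these genes passed the threshold. The sign of Id2 turned to positive under median scaling, at 0.0338. That scaling moved the median of all tested probes to 0.21, above the Id2 value. Id3 read 7.40, 6.66 and 6.98 on the control arrays and 7.12, 8.07 and 7.87 on those with the Chd1 hairpin on probe ILMN_2687169. Chd1 shRNA replicates 2 and 3 stood above all controls, while replicate 1 lay below control replicate 1. The log2 difference was 0.67 (SE 0.29, 95% interval 0.02 to 1.32), with an adjusted p of 0.474 by limma and an exact two-sided permutation p of 0.2. Id1 on ILMN_2672190 read 7.58, 8.11 and 7.73 on the control arrays and 7.71, 8.43 and 8.26 on those with the Chd1 hairpin. Its replicates 2 and 3 were again the highest of the 6 arrays and replicate 1 lay among the controls, giving a difference of 0.33 (95% interval -0.22 to 0.87) with an adjusted p of 0.630 by limma.

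Id2 probe ILMN_1236868 read 5.20, 5.49 and 5.94 on the control arrays and 4.84, 5.66 and 5.57 on those with the Chd1 hairpin, a log2 difference of -0.18 (95% interval -0.81 to 0.44) with an adjusted p of 0.824 by limma. The groups overlapped, and the sign rested on control replicate 3 and Chd1 shRNA replicate 1: without the one or the other the difference was 0.01 or 0.07. The remaining Id2 probes did not pass the detection filter. Probe ILMN_1228557 was detected on no control array and on 2 of 3 Chd1 shRNA arrays, and ILMN_2887239 on 1 control array only, each too close to background for a fold.

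Fibroblast marker values differed along with those of Id1 and Id3. The Chd1 shRNA arrays with the highest Id1 and Id3 signal, replicates 2 and 3, also had the highest fibroblast level, while control replicate 3, with a fibroblast level of 7.45, had Id1 and Id3 values in the range of the other controls. With the fibroblast level as a covariate, the Id3 difference was 0.37 in place of 0.67, that of Id1 0.14 in place of 0.33, and that of Id2 -0.70 in place of -0.18, with adjusted p-values of 0.841, 0.950 and 0.531 by limma. The corresponding values for Bmp4 (ILMN_1215252) and Smad6 were -1.00 in place of -1.04 and 0.60 in place of 0.65. Whether this dependence differs between the genes was not tested. Among primitive endoderm markers 4 of 5 detected probes also had positive differences, with a median of 0.51 and none past an adjusted p of 0.05 by limma. Of the 5, 2 had an unadjusted p under 0.05 by limma, both higher, against 4.71% of all tested probes. They were Dab2 (ILMN_3091641) at 0.71 and Gata6 at 0.64. The summed unnormalized intensity of the primitive endoderm markers ran from 1498.7 to 1758.7 in control and from 1773.3 to 2041.4 in Chd1 shRNA arrays. With the fibroblast covariate the median was 0.18, again with 4 of 5 positive, and 0 of the 5 had an unadjusted p under 0.05. The part of these markers in the Smad6 and Id3 values was not tested.

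**Figure D2:**
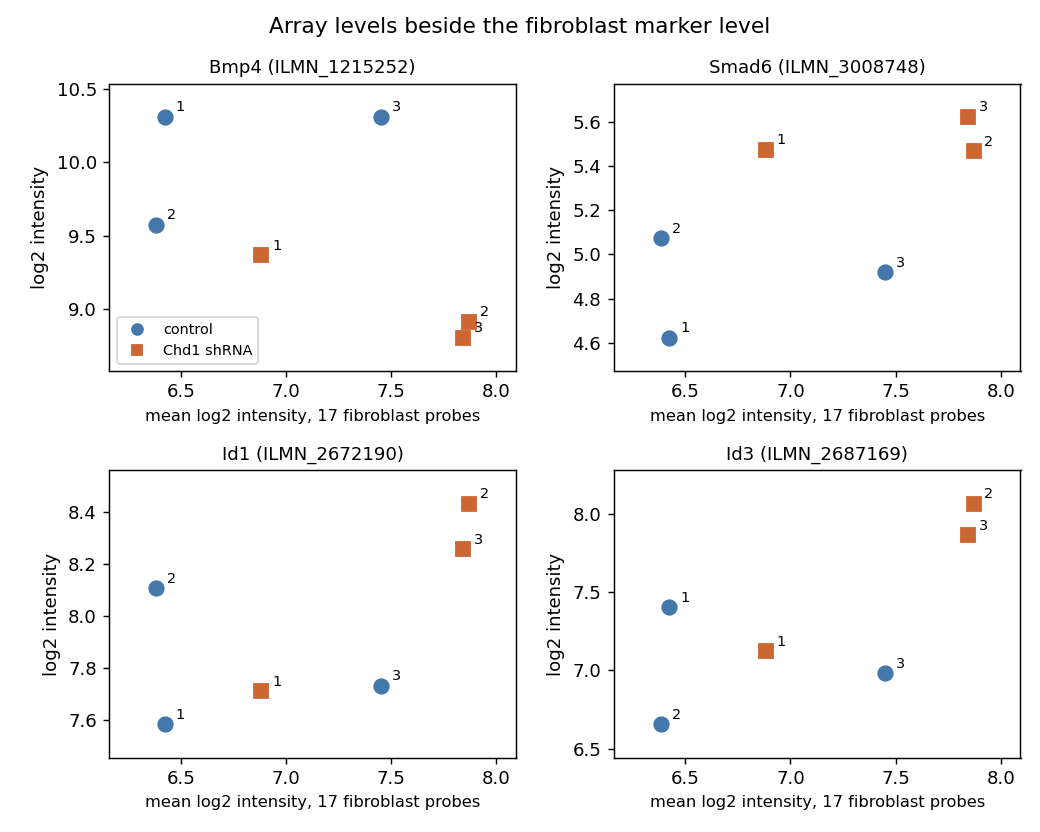
Normalized log2 intensity (y axis) of Bmp4, Smad6, Id1 and Id3 against the mean log2 intensity of 17 fibroblast marker probes on the same array (x axis), with circles for control, squares for Chd1 shRNA and the replicate number beside each point. Control replicate 3, at a fibroblast level of 7.45, has Bmp4 at 10.31, Smad6 at 4.92, Id1 at 7.73 and Id3 at 6.98. Each lies between the values of the other controls. This is 1 array, and a dependence on the fibroblast level was not tested.

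**Figure D3:**
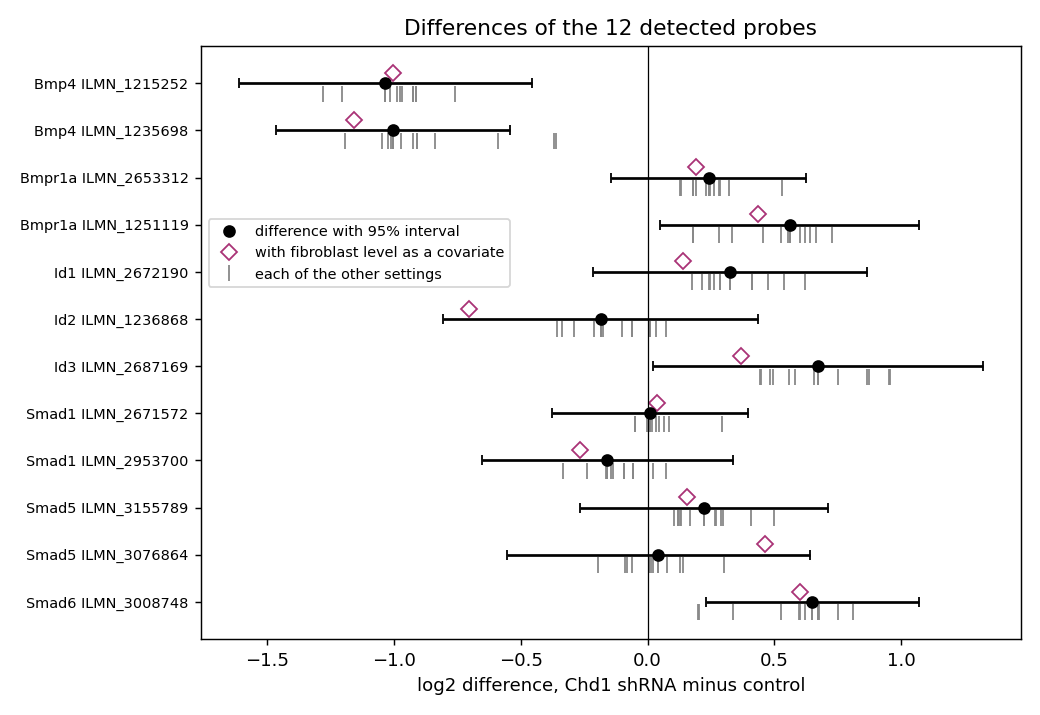
Log2 difference, Chd1 shRNA minus control (x axis), of the 12 detected probes, with points and bars for the estimate and its 95% interval, diamonds for the fit with the fibroblast level as a covariate and grey ticks for the other alternative settings. The ticks of Bmp4 stay below 0 and those of Smad6, Id3, Id1 and Bmpr1a above it, while Id2, Smad1 and the dimmer Smad5 probe cross 0.

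Other genes of the pathway were taken from lists grouped by role: 70 further genes on the array, 36 of them with 47 detected probes. None of the 47 passed an adjusted p of 0.05 by limma, and 6 had an unadjusted p under 0.05, against 10.4% of all tested probes. Of these 6, 5 were higher (4.71% of all tested probes) and 1 lower (5.7% of all). The 5 higher include a Furin probe that passed the detection filter only through Chd1 shRNA arrays. Of the 47 probes, 31 had positive and 16 negative differences, with a median of 0.08, where 50.5% of all tested probes were positive. Median scaling, which moved the median of all tested probes to 0.21, made 43 of the 47 positive, and the fibroblast level as a covariate made it 24, with the sign of 17 probes turned. Among other ligands, Gdf3, a TGF-beta family ligand of embryonic stem cells, had a log2 difference of -0.53 and Bmp8a, another BMP ligand gene, one of 0.52, with no overlap between groups for Bmp8a. Gdf3 read 10.17, 10.08 and 10.64 on the control arrays and 10.23, 9.32 and 9.74 on those with the Chd1 hairpin, so its groups overlapped.

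Among the receptors and co-receptors, Eng, which encodes the co-receptor endoglin, read 5.89, 6.41 and 6.14 on the control arrays and 6.83, 6.87 and 6.88 on those with the Chd1 hairpin. The 3 Chd1 shRNA arrays lay close together above all controls, with a log2 difference of 0.71 (SE 0.19) and an adjusted p of 0.277 by limma. With the fibroblast level as a covariate it was 0.71. Acvr1, another type I receptor gene of BMP ligands, had a difference of 0.33, and the type II receptor gene Bmpr2 0.19. With the covariate these were 0.39 and -0.38, and Bmpr2 had 0.46 without control replicate 3. Of the other SMAD genes, Smad3, which transmits activin, Nodal and TGF-beta signals, had differences of 0.58 and 0.37 on its 2 probes, and Smad2 0.03. The covariate turned both Smad3 values, to -0.11 and -0.52, and gave 0.04 for Smad2.

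Extracellular antagonists had 5 probes with positive and 3 with negative differences. Nbl1, an antagonist of the DAN family, had a value of 0.78 on ILMN_2886618 and -0.17 on a dimmer probe, and Grem1, of the same family, had 0.70. With the fibroblast level as a covariate these values were 0.09, -0.78 and -0.29. Among the inhibitors inside the cell and at the membrane, Fkbp1a, whose product holds type I receptors inactive, had 0.28, and Smurf1, a ubiquitin ligase for SMAD1 and SMAD5, had values from 0.06 to 0.28 on 3 probes. The covariate gave 0.12 for Fkbp1a and from -0.09 to 0.23 for Smurf1. Other target genes included Gata3 with 0.56, detected on 1 control and 3 Chd1 shRNA arrays, and Gata2 with 0.41, which were 0.29 and 0.01 with the covariate. E proteins, the binding partners of ID proteins, had values of -0.28 (Tcf4, brighter probe) and 0.09 (Tcf3, ILMN_2596278). Furin, the convertase gene whose enzyme cleaves BMP precursors, was seen by probe ILMN_1252364 on all 3 Chd1 shRNA arrays and on no control array. There its Chd1 shRNA signal was at least 1.25-fold higher, with measured means of 4.50 in control and 5.16 in Chd1 shRNA arrays. This probe passed the detection filter only through the arrays where it was higher, so no p-value is given for it. Its brighter probe ILMN_3148489, detected on every array, had a difference of 0.36, and Pcsk7, another convertase gene, one of 0.30. With the covariate both turned, to -0.34 and -0.14, while ILMN_1252364 had 0.60.

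**Figure D4:**
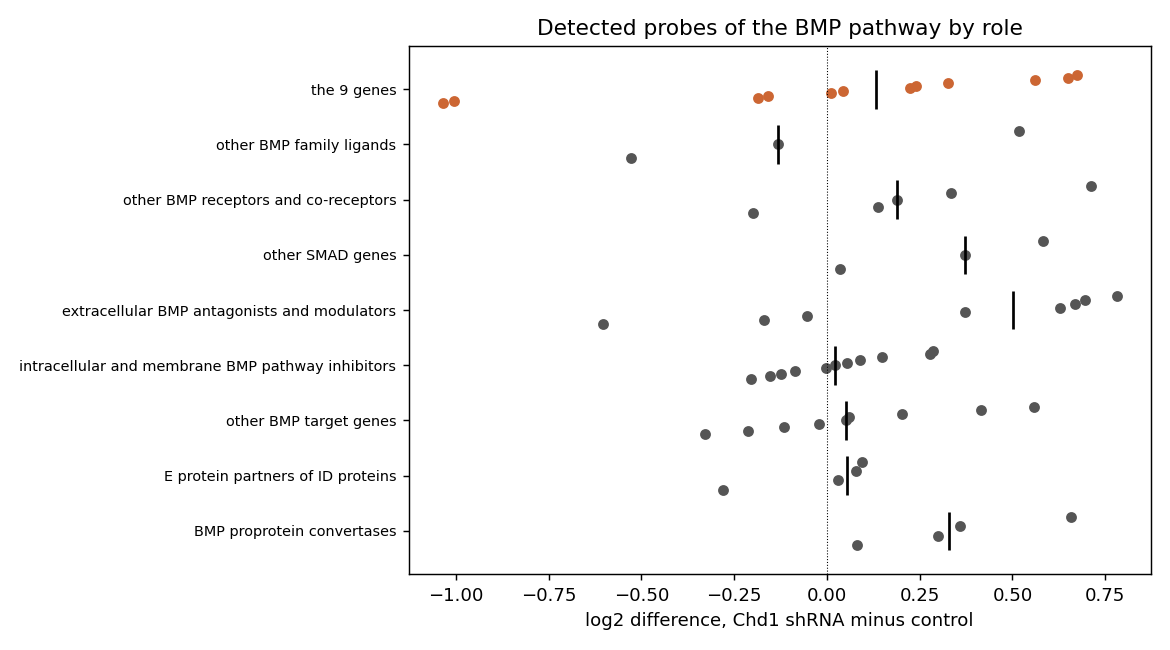
Log2 difference, Chd1 shRNA minus control (x axis), of each detected probe of the 9 genes (orange) and of the other pathway lists (grey), by role (y axis), with a bar at each list's median. The 2 Bmp4 probes at -1.04 and -1.00 are the lowest points of the plot, and the highest is Nbl1 at 0.78.

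The genes nearest to Bmp4 and Id3 in pattern were found by the root mean square difference, over the 6 arrays, between log2 intensities taken relative to each probe's own mean. For Bmp4 (ILMN_1215252) they were Igsf21 (0.15), Alpk3 (0.16), Purb (0.16) and Tgm2 (0.16). Like Bmp4, these 4 genes were highest in control replicates 1 and 3 and lowest in Chd1 shRNA replicates 2 and 3. For Id3 they were Dram1 (0.12), Ifngr1 (0.13), Tssc4 (0.14) and Itga11 (0.15), each lowest in control replicate 2 and highest in Chd1 shRNA replicate 2. These are the closest of 10408 and 10409 candidate probes.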

How the data were processed

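RNA of 3 control and 3 Chd1 shRNA samples was measured on 1 Illumina BeadChip. Per the file headers, the deposited unnormalized table holds intensity values and detection p-values of every probe, and GenomeStudio is named in the submitters' processing notes. The other deposited table holds intensities processed by the authors in a way not given in the sources used here. It served as an alternative. Intensity columns were matched to samples by name. The detection p columns share 1 name, so each was taken for the intensity column it follows. Ordered by that intensity, its p rose at no more than 4 of the 45281 probes, against at least 16217 for any other pairing.

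Background correction used a normal-exponential model and an offset of 16, with the negative-control distribution inferred from the detection p-values. Quantile normalization and log2 followed (limma 3.58.1, R 4.3.3). Background correction enlarges the differences of dim probes and the offset shrinks them. Probes detected (p under 0.05) on 3 or more arrays were fitted with lmFit and eBayes, and p-values were Benjamini-Hochberg adjusted over all 16018. The platform annotation gave 1 gene for 34885 probes, several for 18 and none for 10378. Where all arrays of a group miss a probe, a fold, if given, is a lower bound, taken against the lowest detected signal of each such array or the probe's own value if higher. The fit was tested on simulated data. At an adjusted p under 0.05 by limma it recovered 99 of 100 changes of log2 size 3, but only 41 of 100 of size 1. The number of arrays limits the precision.

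The 9 genes, the gene lists and the tests were chosen with earlier results of these data known. Named are the 9 genes, the 2 genes of each other list with the largest absolute difference, and the 4 genes (SD over arrays at least 0.2) nearest to Bmp4 and to Id3. Bmpr2 and the stem cell and primitive endoderm markers given with values were named after their values were seen. The palindrome GTCTAGAC was added to the motifs after the promoter sequences were seen.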

Additional observations from a re-analysis of the deposited data

How the results depend on the processing

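Over 17 alternatives (offset 50, no background correction, median or 75th percentile scaling, the authors' processed table, no or a stricter detection filter, trend and robust variance, array weights, 1 probe per gene, the fibroblast covariate and each array left out), none of the 12 probes passed an adjusted p of 0.05 by limma in any fit that held it. Both Bmp4 probes stayed negative (-1.28 to -0.76 and -1.19 to -0.36), and Smad6 (0.20 to 0.81), Id3 (0.37 to 0.96), Id1 (0.14 to 0.62), both Bmpr1a probes (0.13 to 0.53 and 0.18 to 0.73) and Smad5 ILMN_3155789 (0.11 to 0.50) stayed positive. The lowest adjusted p was 0.0967, for Bmp4 ILMN_1235698. Over all probes, 0 passed in the reported fit, 31 with trend and robust variance, 1 with array weights and 1 with median scaling, which moved the median of all probes to 0.21. The count of the 12 at an unadjusted p under 0.05, examined after seeing the data, was 3 with the stricter filter, which kept 9 of the probes, 3 with 1 probe per gene, which kept 8, and 3 to 5 with an array left out (3 when it was control replicate 2, Chd1 shRNA replicate 2 or Chd1 shRNA replicate 3). Signs turned only for probes near 0, and the cause was not tested. Id2 turned to 0.0338 with median scaling, 0.0096 with array weights, 0.01 without control replicate 3 and 0.0722 without Chd1 shRNA replicate 1. Smad1 ILMN_2671572 turned to -0.0029 with array weights, and ranged from -0.0507 to 0.0632 with an array left out. Smad1 ILMN_2953700 turned to 0.0722 with median scaling, and ranged from -0.33 to 0.0231 with an array left out. Smad5 ILMN_3076864 turned to -0.0825 with 75th percentile scaling and -0.06 with array weights, ranged from -0.19 to 0.30 with an array left out, and was 0.47 with the fibroblast covariate. No paired analysis was possible because the labels give no shared replicate numbers. Signal close to background limits Smad7, Smad6, the dimmer probes and all Id2 probes.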
